A study of Mus musculus with 4 samples.

Results

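The genes described here are Klrb1c, Klrd1, Klrk1, Klrc1, Klrg1, Klre1 and Cd69, 7 of the 22367 protein-coding genes of the mm9 annotation. They encode receptors of the natural killer (NK) cell surface and neighbours of those receptors. They were chosen by name for this role, with earlier results of these data known. A peak was counted for a gene when its midpoint lay in the gene body or within 30 kb of it. By this rule 10 of the 17532 DP peaks and 2 of the 1516 iNKT peaks belonged to the 7 genes.

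The peaks came from E2A ChIP-Seq, the sequencing of DNA fragments pulled down with anti-E2A, of thymocytes from L-DKO mice aged 3 to 5 weeks. These mice carry the genotype Id2 f/f Id3 f/f LckCre+, so both cell types lacked Id2 and Id3 through a Cre driven by the Lck promoter, which is active from early in T cell development. DP cells were sorted as CD1dTet- CD4+ CD8+ and iNKT cells as CD1dTet+ TCRβ+, each from pools of 3 to 4 mice. There was 1 E2A library for each of the 2 cell types, each called against its own input, and no library from mice with intact Id genes. The strain was either C57BL/6 or a hybrid of C57BL/6 with the 129 strain, and the labels do not say which went into each library. The NK gene complex is known to differ between these strains, and the assembly is that of C57BL/6. A list of peaks holds no expression values, so the identity of the sorted cells could not be checked against markers.

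E2A is an E protein, a transcription factor that binds short DNA sites called E-boxes as a dimer. Id2 and Id3 pair with E proteins and keep them off DNA. The NK gene complex of the mouse is a long cluster on chromosome 6 of genes for C-type lectin-like receptors, through which NK cells and some T cells receive activating or inhibitory signals. Several of these receptors also appear on iNKT cells as they mature, and Klrb1c, which encodes NK1.1, is the usual mark of the mature stage in C57BL/6 mice.

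The 3 stretches of sequence that follow carry E-boxes of peaks described in the account. All are on the plus strand of mm9 and read 5′ to 3′, and capitals mark CAGGTG, its reverse complement CACCTG and the palindrome CAGCTG. The first lies in the peak between Klrd1 and Klrk1 (chr6:129558492-129558747) that was called in both cell types. The second is from the DP peak just upstream of Klrb1c (chr6:128739639-128739934), and the last is from the DP peak over the start of Cd69 (chr6:129225804-129225839), upstream of the transcribed part.
Klrk1 downstream: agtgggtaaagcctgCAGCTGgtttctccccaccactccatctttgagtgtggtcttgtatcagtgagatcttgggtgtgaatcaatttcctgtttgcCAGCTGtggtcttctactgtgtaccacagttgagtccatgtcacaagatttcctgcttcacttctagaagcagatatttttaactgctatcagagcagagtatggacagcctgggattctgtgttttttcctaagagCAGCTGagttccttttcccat
Klrb1c upstream: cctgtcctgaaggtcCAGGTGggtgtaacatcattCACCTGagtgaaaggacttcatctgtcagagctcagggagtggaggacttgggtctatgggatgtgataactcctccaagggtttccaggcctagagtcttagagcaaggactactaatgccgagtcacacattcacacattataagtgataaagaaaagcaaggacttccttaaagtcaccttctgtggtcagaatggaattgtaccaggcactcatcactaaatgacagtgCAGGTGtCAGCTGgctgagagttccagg
Cd69 start: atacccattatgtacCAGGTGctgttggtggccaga

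DP peaks were found at 6 of the 7 genes and iNKT peaks at 4 of the 7. Among all protein-coding genes 46.4% had a DP peak by the same rule, 7.49% had an iNKT peak and 6.52% had both, against 4 of the 7 genes with both. The 7 genes are short, with Klrk1 the longest at 13542 bp. Among the 10437 genes no longer than Klrk1, 38.3% had a DP peak and 4.51% an iNKT peak. The 7 are not independent cases, because Klrk1, Klrd1 and Klre1 lie side by side and received the same DP peak and the same iNKT peak. The iNKT count of 4 genes therefore rests on 2 peaks, one near Cd69 and one between Klrd1 and Klrk1. Klrc1 had no peak in either list, and Klrb1c and Klrg1 had DP peaks but no iNKT peak.

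**Figure D1:**
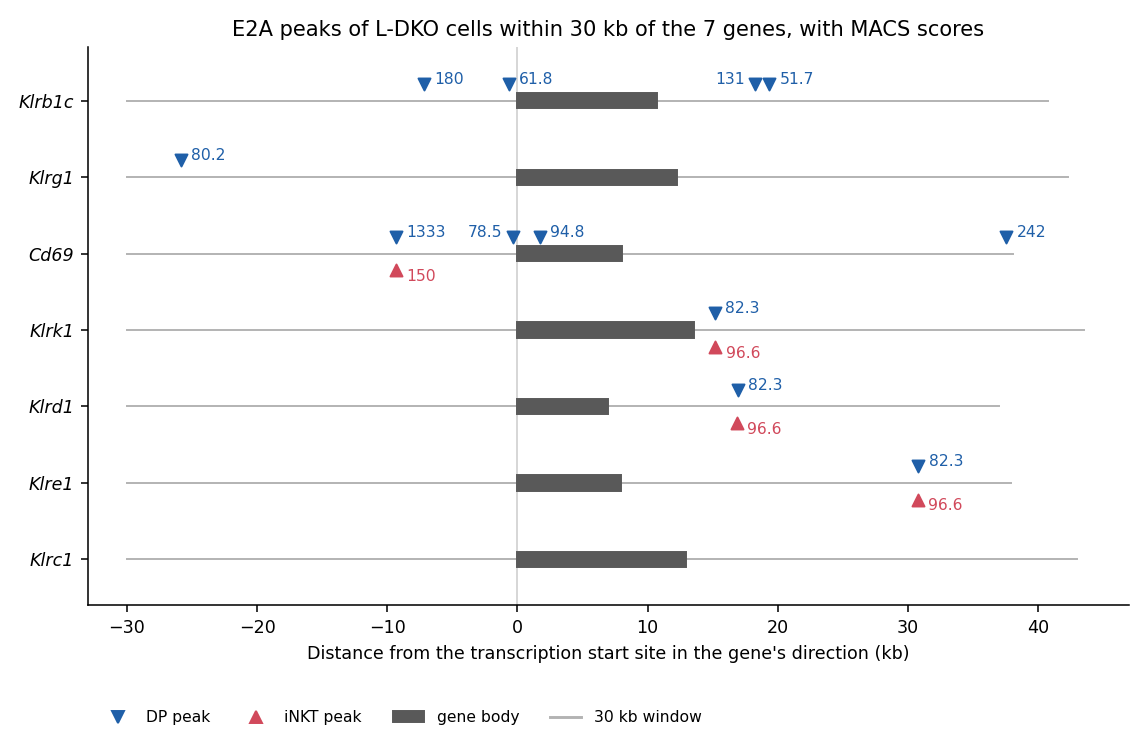
E2A peaks at the 7 genes. The horizontal axis is the distance in kb from each gene's transcription start site, in the direction of transcription, and each row is a gene with its body as a dark bar and its 30 kb window as a thin line. Downward triangles are DP peaks and upward triangles iNKT peaks, placed at the midpoint and marked with the MACS score. Both triangles stand together upstream of Cd69 and past the end of Klrk1, the row of Klrc1 is empty, and the peak past Klrk1 appears again in the rows of Klrd1 and Klre1.

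The deposited score is the negative log10 of the MACS p-value against the input, multiplied by 10, and no peak in the lists scored below 50. It rises with sequencing depth, which the lists do not give. Scores are therefore read as ranks within a list, and a count of peaks that differs between the lists cannot be told apart from a difference in depth. The DP peaks at the 7 genes scored from 51.7 to 1333 with a median of 88.6, and 3 of the 10 lay above the median of the DP list, which was 140.5. Both iNKT peaks, at 96.6 and 149.9, lay above the iNKT median of 79.6. The DP peaks were 517 to 2248 bp wide, with a median of 1059.5 bp against 984 bp in the list.

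Klrb1c encodes NK1.1, an activating receptor of NK cells. The gene is on the minus strand, from 128728503 to 128739233 on chromosome 6. It had 4 DP peaks, and 11.0% of protein-coding genes had 4 or more. The highest ran from 128745881 to 128746980, 7.20 kb upstream of the transcription start site, with a score of 180.5 and rank 7378 of 17532. The peak nearest to the promoter ran from 128739634 to 128740150, with its midpoint 0.659 kb upstream of the start, a score of 61.8 and rank 15159. This narrow peak of 517 bp held 5 E-boxes, 3 of them CAGGTG in either orientation and 2 CAGCTG. Of these, a CAGGTG at 128739907 to 128739912 was followed after a single base by a CAGCTG at 128739914 to 128739919, as the second stretch shows near its end.

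The other pair lay past the 3′ end of Klrb1c, at 18.3 and 19.3 kb from the start site, or 7.55 and 8.59 kb beyond the end of the gene. The peak from 128720435 to 128721478 scored 131 (rank 9191), and its neighbour from 128719532 to 128720294 scored 51.7 (rank 17141), 97.8% of the way down the list. All 4 peaks were intergenic and none overlapped an iNKT peak, as only 5.99% of all DP peaks did. The iNKT peak closest to Klrb1c was 495.5 kb away and is the one upstream of Cd69. By its highest score Klrb1c ranked 5882 among the 10378 genes with a DP peak, for which the median of the highest score was 235.

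Cd69 encodes an early activation receptor that holds lymphocytes in the tissue by taking the S1P receptor S1pr1 off the surface, and it also marks thymocytes after positive selection. It lies on the minus strand from 129217342 to 129225387. The upstream peak was the highest of all at the 7 genes. In DP cells it ran from 129233997 to 129235466, 9.34 kb upstream of the start site, and scored 1333 with rank 1163 of 17532. In iNKT cells it ran from 129233973 to 129235513, 9.36 kb upstream, and scored 149.9 with rank 317 of 1516. The midpoints were 12 bp apart, so both cell types had the peak at the same place.

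A second DP peak of Cd69 covered the start of the gene, from 129225070 to 129226427, with its midpoint 0.361 kb upstream, a score of 78.5 and rank 12891. Another DP peak, from 129223115 to 129224189, lay in an intron 1.74 kb downstream of the start, with a score of 94.8 and rank 11380. The fourth DP peak, from 129186715 to 129188962, was the widest at 2248 bp and scored 242 with rank 5988. It was 37.5 kb from the start of Cd69 and 29.5 kb past its end, just inside the 30 kb limit. It covered the start of the long noncoding RNA gene 2310001H17Rik, on the minus strand from 129158430 to 129188000, with its midpoint 0.162 kb from that start. None of these 3 overlapped an iNKT peak (5.99% of all DP peaks did). The next DP peak outward, from 129184197 to 129185073 with a score of 231, was 32.7 kb past the end of Cd69 and so fell just outside. By its highest score Cd69 ranked 1345 of the 10378 genes with a DP peak and 414 of the 1676 genes with an iNKT peak.

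**Figure D2:**
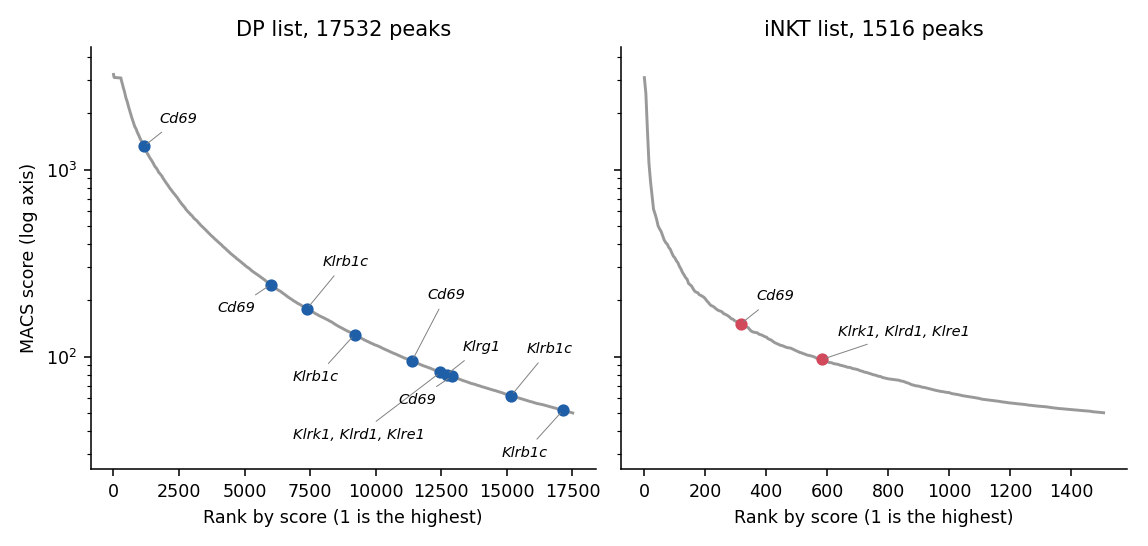
The peaks at the 7 genes within each ranked list. The horizontal axis is the rank by score and the vertical axis the MACS score on a log scale, with the DP list on the left and the iNKT list on the right. The grey line is the list and each point a peak at the named gene or genes. The Cd69 peak at rank 1163 stands well to the left of the other DP points, which run from rank 5988 to rank 17141.

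Klrk1 encodes NKG2D, an activating receptor for ligands that stressed and infected cells display, and lies on the minus strand from 129560341 to 129573882. Klrd1 encodes CD94, which pairs with NKG2 proteins to read the class Ib molecule Qa-1, and lies on the plus strand from 129541800 to 129548793. The 2 genes point toward each other, and a single peak stood between their 3′ ends. In DP cells it ran from 129558404 to 129559030 with a score of 82.3 and rank 12459 of 17532. In iNKT cells it ran from 129558364 to 129558980 with a score of 96.6 and rank 583 of 1516. The midpoints were 45 bp apart. Ranks from lists of such different length are given side by side and were not compared.

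The peak was 1.62 kb past the end of Klrk1 and 15.2 kb from its start site, which was the nearest start of a protein-coding gene. It was 9.92 kb past the end of Klrd1 and 16.9 kb from that start. Its 3 E-boxes were all CAGCTG and spanned 226 bp, as the first stretch shows, and it held no CAGGTG at all, the only one of the 10 DP peaks without one.

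Klre1, upstream of Klrd1 on the plus strand from 129527911 to 129535842, encodes a receptor that forms pairs with Klri1 or Klri2. Its peaks were the same pair, 22.9 kb past its end and 30.8 kb from its start, with Klrd1 lying in between. The next DP peak was 42.8 kb upstream, with a score of 147.

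Klrc1 encodes NKG2A, the inhibitory partner of CD94, on the minus strand from 129616033 to 129628991, and had no peak of either list in its body or within 30 kb. The iNKT peak from 129660616 to 129661328 came closest, at 32.0 kb upstream, with a score of 69.8 and rank 892, and it overlapped no DP peak. The closest DP peak was the one near Klrk1, 57.3 kb past the end of Klrc1. The alignment kept no read that matched several places equally well, so repeated sequence can lack peaks. Of all words of 31 bases in the window of Klrc1, 59.2% occurred once in the assembly, which was the lowest share of the 7 windows, and the others ran from 71.9% at Klrb1c to 90.2% at Cd69. The part that this had in the absence of peaks was not tested.

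Klrg1 encodes an inhibitory receptor for cadherins that marks NK and effector T cells late in their differentiation. It lies on chromosome 6 but far from the complex, on the minus strand from 122220614 to 122232900. Its 1 DP peak spanned 122258351 to 122259223, 25.9 kb upstream, and scored 80.2 (rank 12701). That peak covered the start of M6pr, the gene for a mannose-6-phosphate receptor, and its midpoint was 0.049 kb from the M6pr start site. When a peak counted only for the gene with the nearest start, Klrg1 had none. The next DP peak was 458.4 kb from Klrg1 and the closest iNKT peak 538.1 kb from it.

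Seen by position, 3 of the 10 DP peaks had their midpoint within 1 kb of the start of a protein-coding gene, at Klrb1c, Cd69 and M6pr, against 13.7% of all DP peaks. Neither of the 2 iNKT peaks did, against 5.87% of all iNKT peaks. In the comparison of the lists, 2 of the 10 DP peaks overlapped an iNKT peak (5.99% of all DP peaks did), and both iNKT peaks overlapped a DP peak (69.3% of all iNKT peaks did). Over all overlapping pairs the median distance between midpoints was 95 bp, and in 29.9% it was 50 bp or less, as it was at Cd69 and at Klrk1. With so few peaks these shares describe the 7 genes and were not tested.

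For E2A the site of most interest is CAGGTG. It was searched on both strands, as CAGGTG or CACCTG, in 200 bp at the midpoint of each peak. By this measure 4 of the 10 DP peaks held one, against 43.9% of all DP peaks (95% Wilson interval 43.2 to 44.7, for counting error only). The 4 were those just upstream of Klrb1c, at M6pr, over the start of Cd69 and 29.5 kb past its end. Neither of the 2 iNKT peaks held one there, against 52.8% of all iNKT peaks (50.2 to 55.3). Over the whole peak the counts were 9 of 10 and 1 of 2, beside 79.0% and 80.9% of all peaks. The palindrome CAGCTG lay in the central 200 bp of 3 of the 10 DP peaks and 1 of the 2 iNKT peaks, against 29.0% and 30.5% in the lists.

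Cores of other factors of thymocytes were searched in the same windows. The Runx core ACCACA was in 2 of the 10 DP peaks and both iNKT peaks (23.8% and 25.3% of the lists). The Tcf7 and Lef1 core TCAAAG was in 2 of 10 and 1 of 2 (17.4% and 19.1%), and the Gata3 core TTATCT in 2 of 10 and neither of the 2 (8.87% and 13.6%). A match describes the letters in the window and is not evidence that the factor was bound.

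Most E-boxes in these windows lay outside any peak. Counting each site once, the windows of the 7 genes held 234 CAGGTG sites, 18 of them (7.69%) under a DP peak and 4 (1.71%) under an iNKT peak. In the whole genome, chromosomes 1 to 19 and X, 1.86% of 1742444 sites lay under a DP peak and 0.214% under an iNKT peak. The genome shares count sites far from any gene as well, so they are not a like background for windows around genes. All 4 sites under an iNKT peak were at Cd69. Cd69 and Klrd1 each had 37 sites in their windows, of which 10 lay under DP peaks at Cd69 and 0 at Klrd1. Klrb1c had 59, with 7 under DP peaks, and Klrg1 had 50, with 1. Klrc1 had 36 sites, Klre1 43 and Klrk1 29, with 0 under a peak of either list.

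**Figure D3:**
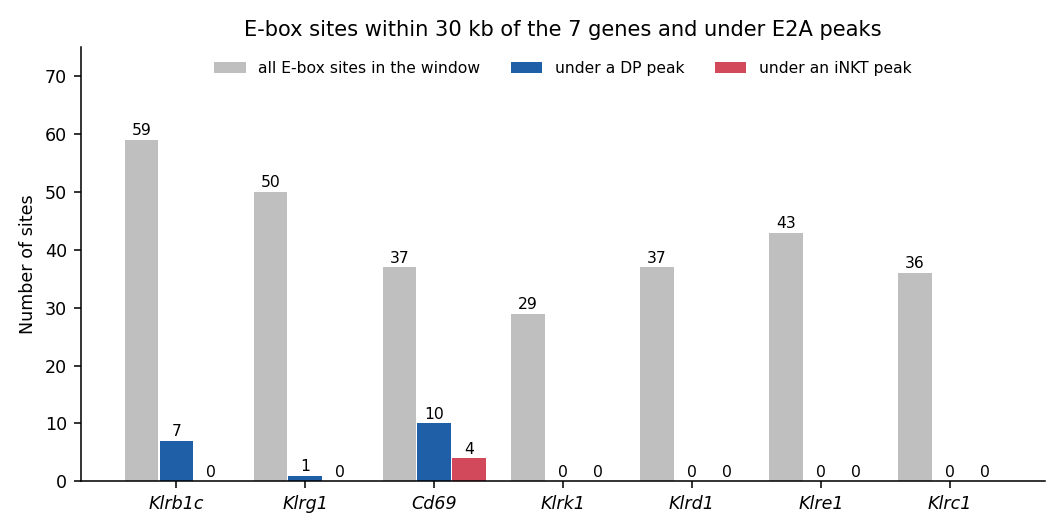
E-box sites (CAGGTG on either strand) in the window of each gene. Bars give the number of sites in the gene body and 30 kb on either side (grey), under a DP peak (blue) and under an iNKT peak (red), and windows of neighbouring genes overlap. Sites are numerous in every window, from 29 at Klrk1 to 59 at Klrb1c, while sites under peaks occur at Klrb1c, Klrg1 and Cd69, and under an iNKT peak at Cd69.

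The 7 windows, joined where they overlap, covered 0.372 Mb and held 26.9 DP peaks and 5.37 iNKT peaks per Mb, beside 6.86 and 0.593 per Mb over the genome. The genome values also count sequence far from any gene, so they are not a like background for windows around genes. Of the 10 DP peaks in the windows, Klrb1c and Cd69 had 4 each. Within the NK gene complex itself, taken from Klrb1a to Klra2 (2.64 Mb), the values were 9.10 and 1.52 per Mb, and the peaks were unevenly placed. The part from Klrb1a to Clec2d had 12 DP peaks and 0 iNKT peaks. The part from Cd69 to Olr1 had 5 DP peaks and 1 iNKT peak. The part from Klre1 to Klri2, with Klrd1, Klrk1 and Klrc1, had 1 DP peak and 2 iNKT peaks. The Ly49 part, from Klra17 to Klra2, had 0 DP peaks and 1 iNKT peak over 1.42 Mb, and 54.2% of its 31-base words occurred once. In the first 3 parts, in the order given, 71.1%, 89.2% and 75.2% did, and their DP peaks per Mb were 20.8, 20.8 and 6.15. These 4 parts held 18 of the 24 DP peaks of the complex. Another 5 lay in the 80.8 kb between Clec2d and Cd69, or 61.9 per Mb, and 1 lay between Olr1 and Klre1.

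**Figure D4:**
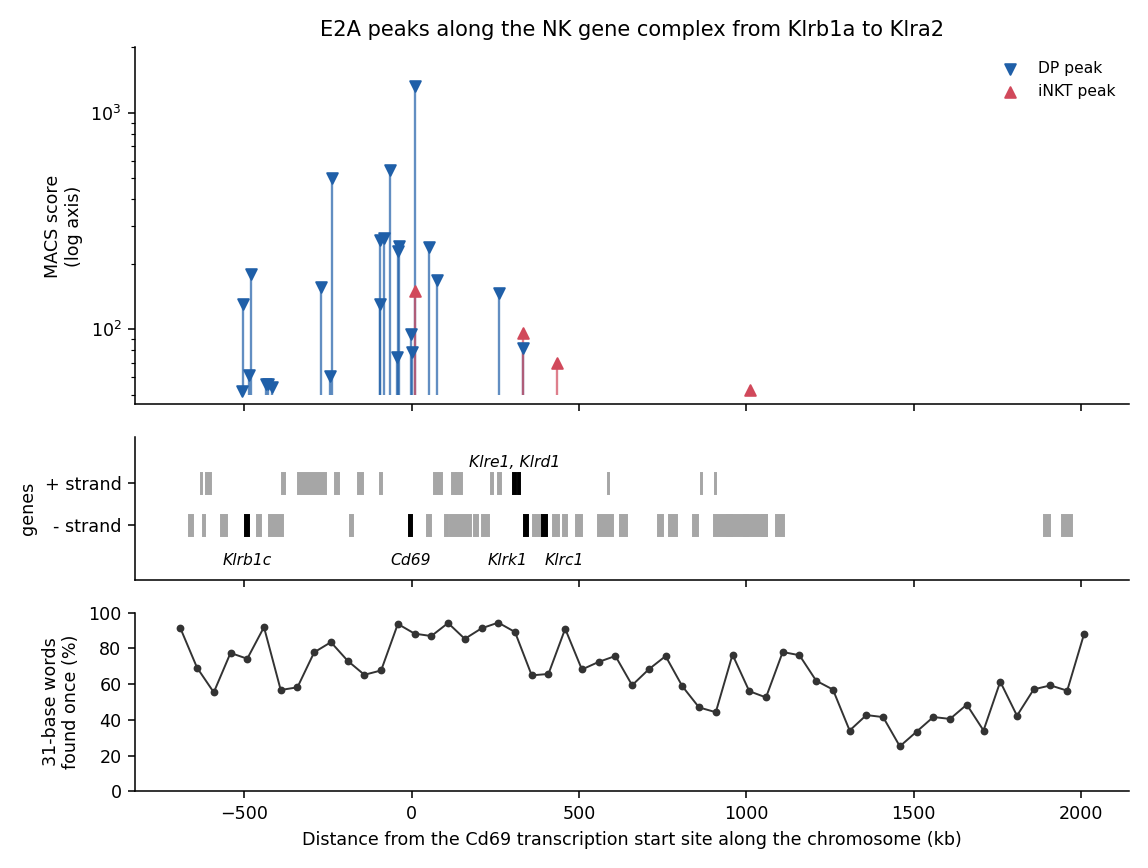
E2A peaks along the NK gene complex. The horizontal axis is the distance in kb from the Cd69 start site along the chromosome. The top panel gives the MACS score of each peak on a log axis, the middle panel the protein-coding genes on each strand with 6 of the 7 genes in black (Klrg1 lies elsewhere), and the bottom panel the share of 31-base words found once in the assembly. DP peaks end with the one near Klrk1, and the share of words found once falls toward the Ly49 genes on the right.

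Other genes of the complex and its receptor families were taken from a list of 44 names, of which 32 matched the annotation. One of the 32, Klrg2, lies elsewhere on chromosome 6 and had no peak. DP peaks were found at 9 of the 32 (28.1%, beside 46.4% of all protein-coding genes), iNKT peaks at 4 (12.5%, beside 7.49%) and peaks of both lists at 0 (beside 6.52%). The highest DP scores were those at Clec2d, the ligand of an NKR-P1 receptor, where a peak scored 545 (rank 3095), and at Klrb1f and Clec2g, a receptor and a lectin-like gene that share a peak with a score of 501. Klrb1b, the inhibitory relative of NK1.1, had 4 DP peaks, 2 of which were also counted at Klrb1c. Clec12a had 2 DP peaks, and Clec12b, Clec2i and Olr1 had 1 each. Klrc3, an NKG2 gene, took the DP peak near Klrk1 at 29.994 kb while the iNKT peak there missed the limit at 30.039 kb. The iNKT peaks were at Klri1 and Klri2, which share 1 peak, and at Klra9 and Klra10, which share another.

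A further list of 22 names, with 19 matched, held signalling partners and ligands of these receptors and NK receptors outside the complex. Of the 19, 15 had DP peaks (78.9%, beside 46.4% of all protein-coding genes) and 3 had iNKT peaks (15.8%, beside 7.49%). All 3 also had DP peaks. Windows grow with gene length, and no share among genes of like length was taken for this list. The list was chosen with earlier results of these data known. Zap70, the kinase of the T cell receptor, had 6 DP peaks and 2 iNKT peaks, with highest scores of 3100 and 318. The score of 3100 is a value that 258 DP peaks share, so those peaks have no order among themselves. Cd247, the CD3 zeta chain, had 13 DP peaks and 1 iNKT peak, with 3100 and 175. Cd96, a receptor for nectins, had 3 and 1, with 1641 and 103. Tyrobp and Hcst, the adaptors DAP12 and DAP10 through which NKG2D signals, lie together and shared the same 3 DP peaks, with a highest score of 133.

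Phosphatases that act behind the inhibitory receptors had DP peaks: Inpp5d had 7 with a highest score of 827, Ptpn6 had 2 with 225 and Ptpn11 had 3 with 143. Among ligands, H2-T23, which encodes the Qa-1 read by CD94 with NKG2A, had 2 with 317, and Cdh1, a cadherin bound by Klrg1, had 2 with 130.0. S1pr1, which Cd69 draws off the surface, had 1 with 132. Other receptors with DP peaks were Cd160, Tigit, Cd226 and Cd244, with highest scores of 502, 291, 121 and 103. Fcer1g, Ncr1, Crtam and H60b had no peak of either list. These lists are described by their counts only, and neighbouring genes in them share peaks.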

How the data were processed

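DP and iNKT cells of L-DKO mice gave 1 E2A ChIP-Seq library each. Per the methods and the submitters' processing notes, Bowtie 1.1.2 was run against mm9 and kept uniquely placed reads, and MACS 1.4.2 called the peaks against input. The deposited lists hold a position and the score that the authors took from MACS, the negative log10 of its p-value multiplied by 10. Reads, inputs and depth were not analysed here, so no interval on a peak could be given, and with 1 library per cell type no test between cell types was made.

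Genes came from GENCODE M1 on NCBIM37, the same assembly as mm9. Peaks were placed by midpoint in the gene body or within 30 kb, lists were overlapped with at least 1 bp, and E-boxes were searched in 200 bp at the midpoint. The copy number of sequence was read from words of 31 bases. Alternatives were flanks of 10 kb and 100 kb, a minimum score of 100, placement by any overlap, the nearest start only, a 50% mutual overlap and whole peaks for motifs. The genes named are the 7, the genes of both lists with a peak and the genes nearest to the peaks at the 7. A further 5 listed genes without a peak (Fcer1g, Ncr1, Crtam, H60b and Klrg2) and 2310001H17Rik were named after their values were seen, and Klrb1a, Klra17 and Klra2 mark the ends of regions. The 7 genes and the lists were chosen with earlier results of these data known. The functions were tested on simulated data, where 4 of 4 checks returned the known answers. Python 3.11.15, numpy 2.4.6, pandas 2.3.3, scipy 1.17.1, numba 0.67.0 and matplotlib 3.10.9 were used. Stretches of 3 peaks are printed, and the sequence of another is not reported here.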

Additional observations from a re-analysis of the deposited data

How the results depend on the processing

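Of 54 alternative values of 16 counts and shares, 32 stayed within 1.5 times the reported value and 22 moved further. The minimum score of 100 moved the most: the 7 genes then had 4 DP peaks at 2 genes (Klrb1c and Cd69) and 1 iNKT peak at 1 gene (Cd69), with 1 overlapping pair from either side, beside 34.6% of all genes with a DP peak and 3.2% (716) with an iNKT peak, and 0 genes of the NK gene complex list had an iNKT peak. The DP share of the 7 genes was then not above that of all genes. When a peak counted only for the gene with the nearest start, 3 of the 7 genes had a DP peak and 2 an iNKT peak (all genes 27.9% and 4.15%), and the NK gene complex list had 5 and 2. With flanks of 100 kb all 7 genes had a DP peak, with 22 DP peaks between them, and 5 had an iNKT peak. Klrc1 then had peaks of both lists. The NK gene complex list had 19 genes with a DP peak and 12 of its 32 with an iNKT peak, beside 65.0% and 16.9% (3777) of all genes. With flanks of 10 kb, 4 of the 7 genes had a DP peak and 3 an iNKT peak, and Klrg1 and Klre1 had none. The list then had 4 genes with a DP peak. Of all genes, 33.9% had a DP peak and 4.63% (1035) an iNKT peak. Over whole peaks, CAGGTG was in 9 of the 10 DP peaks and 1 of the 2 iNKT peaks, and in 79.0% and 80.9% of all peaks. Placement by any overlap left both counts of genes at 6 and 4. These shifts follow from which peaks and how much sequence each setting counts. No paired analysis was possible because each cell type had 1 library and no result came from a test. Depth is unknown, so a missing peak is not evidence of missing binding.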

Other observations

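Past the DP peak near Klrk1 lay a stretch with no DP peak, from 129559031 to 131303097 on chromosome 6. Its length of 1.74 Mb ranked 304 among 17512 stretches between neighbouring DP peaks, whose median was 19.2 kb. It held 23 protein-coding genes, among them Klrc1 and 11 Ly49 genes of the Klra family, which encode receptors for class I molecules in the mouse, and it held 864 CAGGTG sites, or 0.495 per kb beside 0.682 per kb over the genome. The stretch had no unknown bases in the assembly. The iNKT list had 2 peaks in it. The first, with a score of 69.8, lay in an intron of Klri1, and 90.6% of its 31-base words occurred once in the assembly. The second, from 130236178 to 130236832 with a score of 52.3 and rank 1389, lay in an intron of Klra9 and 4.56 kb upstream of Klra10, and 70.6% of its words occurred once. On chromosome 6, 84.3% of sampled words occurred once, against 54.2% in the Ly49 part. The part of repeated sequence or of strain differences in these counts was not tested.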
